A study of Mus musculus with 9 samples.

Results

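Homeostatic microglia genes are genes that resident brain macrophages express in the undisturbed brain and that few other brain cells express. The 9 genes described here were chosen by name: Cx3cr1, P2ry12, P2ry13, Tmem119, Sall1, Csf1r, Gpr34, Siglech and Olfml3. All 9 were found among the 55450 genes counted, and all 9 were among the 20892 genes with enough counts to be tested. Microglia read signals from neurons and astrocytes through surface receptors: the chemokine receptor Cx3cr1 binds fractalkine (Cx3cl1) from neurons, Csf1r binds Csf1 and Il34 and keeps the cells alive, and P2ry12 senses ADP from injured cells. The transcription factor Sall1 and signalling by transforming growth factor beta maintain this expression programme. Loss of P2ry12 and Tmem119 is a widely used sign of a microglial change of state, although in tissue RNA it can also mean fewer microglia.

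RNA was sequenced from dissected substantia nigra of mice 5 weeks after transduction with Cre-inducible lentiviral vectors, with 3 libraries per group. CTR libraries came from CX3CR1-CreERT2 mice given a GFP control vector, which the methods describe as destabilized GFP. CX3 libraries came from CX3CR1-CreERT2 mice given a Synuclein-expressing vector, and DAT libraries from DAT-Cre mice given that same vector. The CX3CR1-CreERT2 allele (Cx3cr1tm2.1(Cre/ERT2)Litt/WganJ) places a tamoxifen-dependent Cre at the Cx3cr1 gene, and the DAT-Cre allele (Slc6a3tm1(Cre)Xz/J) drives Cre from the dopamine transporter gene of dopaminergic neurons. All animals were male, and the age is given as 8 weeks at injection in one place and as 9 weeks in another. Tamoxifen was given on 4 consecutive days to CX3CR1-CreERT2 mice, hence to CTR and CX3 and not to DAT. CX3 and CTR therefore differ by the vector, while DAT differs from CTR by the Cre line, the Cx3cr1 allele, tamoxifen and the vector, which cannot be told apart. CX3 and DAT differ by all of these but the vector. How many mice gave each library, and whether the knock-in allele was present in 1 or 2 copies, are not given in the sources used here.

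Reads counted on genes numbered 21592817 to 39475428 per library, and 3 counts, taken as the smallest countable signal, equalled 0.0779 to 0.151 CPM (read counts divided by the TMM-normalised size of the library). The 9 genes held 280 to 7291 counts in a library, far above that floor, which covers counting error only. Libraries of 1 group differed in their counts over all genes by 1.45 to 1.78 times the squared difference of random sampling in CTR, by 2.501 to 6.45 times in CX3 and by 2.16 to 14.8 times in DAT, where replicate B stood apart from A and C. For the 9 genes alone this ratio was 0.734 to 1.05 in CTR, 1.08 to 3.39 in CX3 and 1.42 to 6.52 in DAT. Nothing in the labels says that replicates were separate animals, so p-values measure the spread between these libraries, which may be technical. The transgenes are not among the counted genes, so no count checks the labels through the vector. The libraries labelled CTR had the highest summed level of 12 lymphocyte markers (364 to 382 CPM, against 123 to 131 in CX3 and 26.2 to 31.5 in DAT), most of it the plasma cell gene Jchain. Dopaminergic neuron markers summed to 426 to 429 CPM in CTR, 605 to 613 in CX3 and 365 to 369 in DAT, so the labelled tissue was present in each group. These sums include Slc6a3, the gene of the DAT-Cre allele, whose part in the lower sum of DAT was not tested. All group names below are those of the labels.

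The purinergic receptor genes P2ry12 (ENSMUSG00000036353.13, chromosome 3 from 59216272 to 59262871, minus strand) and P2ry13 (ENSMUSG00000036362.2, chromosome 3 from 59207892 to 59210882, minus strand) are neighbours inside the gene Med12l, which lies on the opposite strand. Their promoters are shown beside that of Cx3cr1 (ENSMUSG00000052336.7, chromosome 9 from 119901616 to 120069879, minus strand), because the P2ry genes had their lowest levels in DAT and Cx3cr1 in CX3. Each sequence, from RefSeq on GRCm38.p6, runs 5′ to 3′ from 250 bases before the transcription start to 50 after it. Capitals mark AGGAAG, the core of the site that the myeloid factor PU.1 (Spi1) and other ETS factors bind.

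P2ry12, chr3:59262936-59263235, minus strand: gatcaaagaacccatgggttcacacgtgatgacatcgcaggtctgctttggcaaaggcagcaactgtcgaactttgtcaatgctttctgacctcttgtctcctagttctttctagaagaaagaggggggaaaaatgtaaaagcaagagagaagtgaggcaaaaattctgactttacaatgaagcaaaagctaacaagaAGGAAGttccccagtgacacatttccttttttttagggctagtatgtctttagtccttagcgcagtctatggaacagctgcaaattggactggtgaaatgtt

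P2ry13, chr3:59210833-59211132, minus strand: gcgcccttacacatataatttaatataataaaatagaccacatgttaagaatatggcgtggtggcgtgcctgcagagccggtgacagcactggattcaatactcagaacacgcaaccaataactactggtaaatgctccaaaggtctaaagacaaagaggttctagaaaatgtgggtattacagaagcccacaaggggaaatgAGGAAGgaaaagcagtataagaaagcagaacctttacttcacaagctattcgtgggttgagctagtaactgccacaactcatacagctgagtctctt

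Cx3cr1, chr9:120068247-120068546, minus strand: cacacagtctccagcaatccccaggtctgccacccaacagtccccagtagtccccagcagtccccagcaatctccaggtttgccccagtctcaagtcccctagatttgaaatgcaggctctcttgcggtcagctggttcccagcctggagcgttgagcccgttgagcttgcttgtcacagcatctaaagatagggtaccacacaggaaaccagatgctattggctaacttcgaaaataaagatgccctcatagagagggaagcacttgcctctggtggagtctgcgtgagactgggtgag

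AGGAAG begins 52 bases before the start of P2ry12 and 47 bases before that of P2ry13, and the Cx3cr1 window has no match on either strand. On both strands together, 35.4% of 32851 mouse promoter windows of this length hold AGGAAG. The table had windows for 6 of the 9 genes, 8 windows in all, of which 4 hold it (1 each of Olfml3, P2ry12, P2ry13 and Sall1). The longer form GAGGAAGT, which contains AGGAAG, is in 3.2% of all windows and in 0 of those 8. A match describes the letters in the window and is not a measured binding site.

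Set side by side, 7 of the 9 genes were lower in CX3 than in CTR, where 16.5% of all genes tested were lower (edgeR quasi-likelihood test, Benjamini-Hochberg adjusted p under 0.05). In DAT, 8 of 9 were lower than in CTR, with 27.9% of all genes tested lower. Since both comparisons share the CTR libraries, they are not independent of each other. Between CX3 and DAT, 4 of the 9 were higher in CX3 and 2 lower, where 27.6% of all genes were higher and 31.3% lower (58.9% in either direction). The median log2 fold change of the 9 genes was -0.45 in CX3 against CTR, -0.36 in DAT against CTR and 0.15 in CX3 against DAT, while the median of all genes tested did not exceed 0.01 in size in any of them. In bulk tissue, fewer cells of a type and less RNA per cell cannot be told apart.

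**Figure D1:**
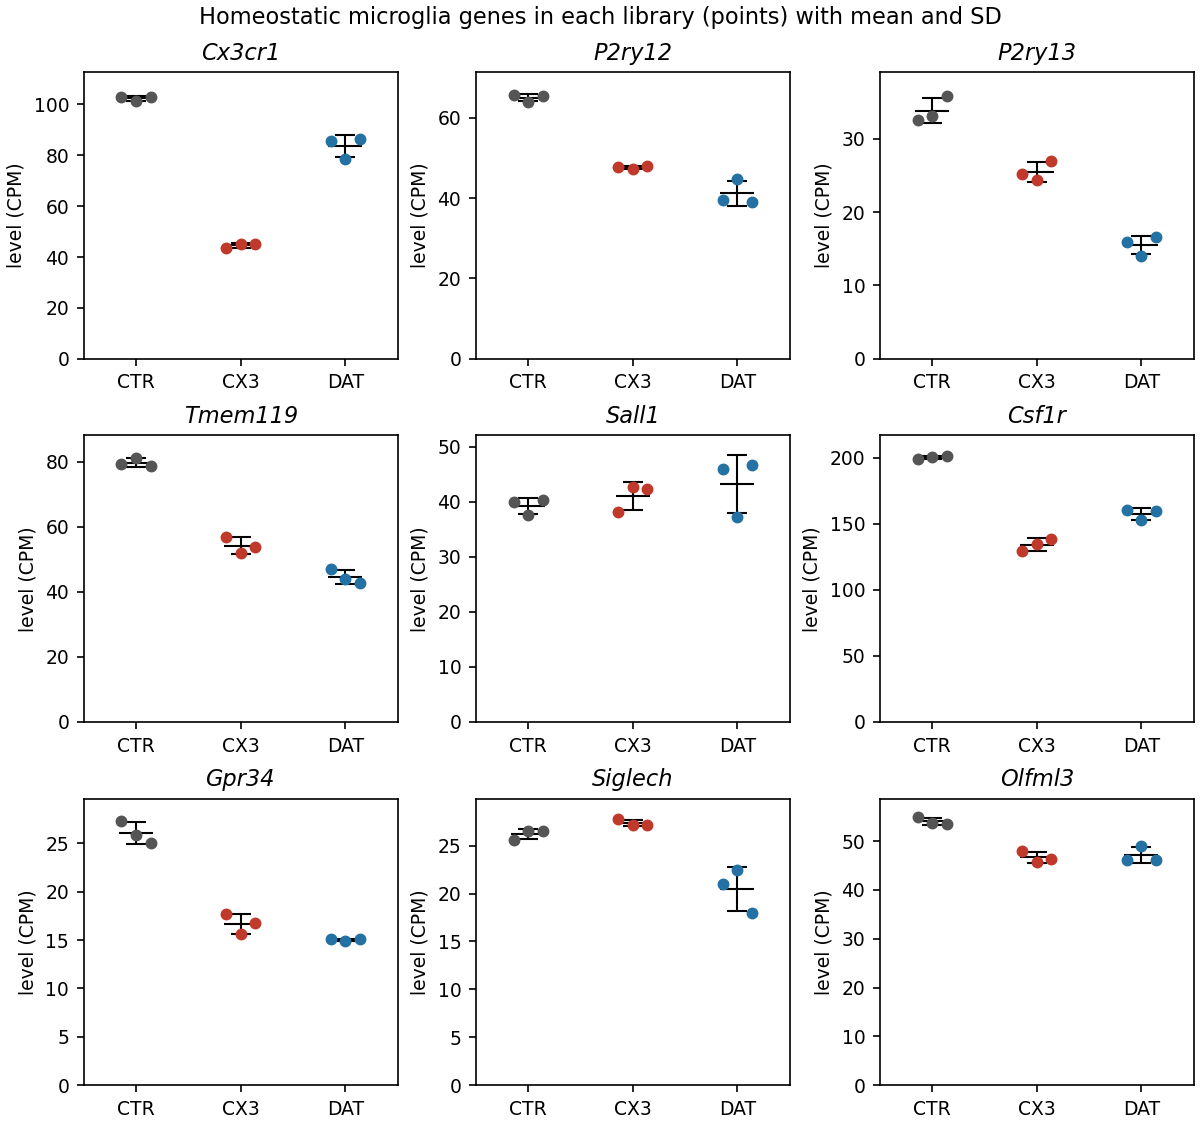
Level of each of the 9 genes in CPM (y axis, from 0) in the 3 libraries of CTR, CX3 and DAT (x axis); points are libraries, and the bar and whiskers are their mean and SD. Cx3cr1 sits lowest in CX3 (43.6 to 45.3 CPM), P2ry13 and Tmem119 sit lowest in DAT, and the 3 groups overlap for Sall1.

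Cx3cr1, the fractalkine receptor gene and the site of the CreERT2 knock-in, had 103, 101 and 103 CPM in CTR, 43.6, 45.3 and 45.0 in CX3, and 85.6, 78.5 and 86.2 in DAT. The groups did not overlap, and CX3 was the lowest by a wide margin. CTR and CX3 both come from the knock-in line, with the number of copies in each not given. The level in CX3 was 43.6% of that in CTR (log2 fold change -1.20, SE 0.05, adjusted p = 2.84e-10, edgeR) and 53.4% of that in DAT (log2 fold change -0.90, SE 0.05, adjusted p = 1.63e-09). In DAT, Cx3cr1 fell by 0.29 on the log2 scale against CTR (SE 0.05, adjusted p = 9.58e-05). Cx3cr1 was the 1 gene of the 9 whose change in CX3 against CTR exceeded 1.5-fold by edgeR's glmTreat test, which 1.7% of all genes passed as lower. It was likewise the 1 gene to do so in CX3 against DAT (8.17% of all genes lower). How much of the transcript of the knock-in allele is counted as Cx3cr1 is not given in the sources used here. Its ligand gene Cx3cl1 had 163 ± 1.64 CPM in CTR, 152 ± 1.96 in CX3 and 287 ± 8.93 in DAT (SD, n = 3 libraries). Cx3cl1 rose in DAT (log2 fold change 0.82, SE 0.04, adjusted p = 6.82e-10), and its difference in CX3 (log2 -0.10, adjusted p = 0.0753) did not pass the test, although it did with CX3 and CTR alone in the fit or without DAT replicate B (-0.09 in each). Astrocyte markers moved too, 5 of 6 lower in CX3 and 4 of 6 lower in DAT than in CTR, and their part in the Cx3cr1 difference was not tested. Gfap, the intermediate filament gene, had 2369 ± 30.8, 1181 ± 17.4 and 1065 ± 19.9 CPM in CTR, CX3 and DAT, and the water channel gene Aqp4 had 927 ± 12.1, 522 ± 35.2 and 517 ± 29.1. Slc1a3, a glutamate transporter gene, had 439 ± 3.15, 284 ± 12.4 and 427 ± 15.3 CPM, and Aldh1l1 had 84.9 ± 1.92, 55.1 ± 1.10 and 82.8 ± 2.24. The last pair was low in CX3 and near CTR in DAT, and the first pair was low in both.

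Csf1r (ENSMUSG00000024621.16, chromosome 18 from 61100598 to 61132149, plus strand), the receptor gene for the survival factors Csf1 and Il34, had 199, 200.3 and 201 CPM in CTR, 129, 135 and 139 in CX3, and 161, 153 and 160 in DAT. CTR libraries lay close together, and the 3 groups were separate, in the same order as for Cx3cr1. Csf1r fell in CX3 against CTR (log2 fold change -0.58, SE 0.04, adjusted p = 2.28e-07, edgeR) and in DAT against CTR (-0.34, SE 0.04, adjusted p = 7.84e-06). It was lower in CX3 than in DAT by a log2 fold change of -0.23 (SE 0.04, adjusted p = 0.000318), a call that was lost when libraries were scaled by their size alone (-0.04). Csf1r shares 15.1% of its exon bases with Hmgxb3 on the opposite strand, and the counts do not separate strands, so its level is less certain than those of the other 8 genes, of which no more than 1.73% is shared. The ligand genes moved differently from the receptor. Csf1 had 52.5 ± 1.498, 52.5 ± 2.69 and 50.6 ± 0.368 CPM in CTR, CX3 and DAT, with no call in any comparison (adjusted p = 0.990 in CX3 against CTR and 0.392 in DAT against CTR). Il34, made mainly by neurons, fell in CX3 (log2 fold change -0.27, adjusted p = 0.00813) and rose in DAT (0.32, adjusted p = 0.00114, edgeR), the latter not in counts of the forward strand alone (0.16).

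The ratio of Cx3cr1 to Csf1r counts within a library does not depend on how libraries are scaled. The 6 ratios given here and further on were chosen with the levels known. It was 0.516, 0.506 and 0.511 in CTR, 0.337, 0.335 and 0.325 in CX3, and 0.533, 0.514 and 0.540 in DAT. CTR and DAT overlapped, and CX3 lay apart from both. By the labels, CTR comes from the CX3CR1-CreERT2 line and DAT does not, so this ratio did not separate the line with the knock-in from the line without it. The reason, and what it means for the labels, was not tested. With 3 libraries against 3, the smallest p that an exact two-sided permutation test can give is 0.1, so no such comparison can pass 0.05. CX3 against CTR reached that smallest exact p, 0.1 (0.12 after adjustment over 18 comparisons of ratios), and DAT against CTR gave an exact p of 0.2 (adjusted 0.225). The ratio of Cx3cr1 to P2ry12 was 1.57 ± 0.00778 in CTR, 0.937 ± 0.0222 in CX3 and 2.04 ± 0.250 in DAT (SD, n = 3 libraries), separate in all 3 groups.

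P2ry12 had 65.6, 63.9 and 65.4 CPM in CTR, 47.7, 47.2 and 48.0 in CX3, and 39.6, 44.8 and 39.1 in DAT. Each CTR library was above each CX3 library, and each CX3 library above each DAT library. P2ry12 fell in CX3 (log2 fold change -0.45, SE 0.05, adjusted p = 2.17e-05, edgeR) and in DAT (-0.66, SE 0.05, adjusted p = 1.18e-07) against CTR, and was higher in CX3 than in DAT (0.22, SE 0.05, adjusted p = 0.00358). P2ry13, a second ADP receptor gene, had 32.6, 33.1 and 35.8 CPM in CTR, 25.2, 24.4 and 27.0 in CX3, and 15.9, 14.1 and 16.5 in DAT. The groups kept the same order with a wider step to DAT. P2ry13 fell in CX3 against CTR (log2 fold change -0.41, SE 0.06, adjusted p = 0.000305) and fell by 1.12 on the log2 scale in DAT (SE 0.07, adjusted p = 7.62e-09), to 46.0% of CTR, where it had the largest change of the 9 genes. The ratio of P2ry13 to P2ry12 counts was 0.520 ± 0.0251 in CTR, 0.535 ± 0.0241 in CX3 and 0.380 ± 0.0574 in DAT (SD, n = 3 libraries). CTR and CX3 overlapped for this ratio (exact permutation p = 0.5, difference of log2 means 0.04), and all 3 DAT libraries lay below both.

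Tmem119 (ENSMUSG00000054675.5, chromosome 5 from 113793729 to 113800516, minus strand), which encodes a membrane protein used to mark microglia, had 79.3, 81.2 and 78.7 CPM in CTR, 57.0, 51.9 and 53.9 in CX3, and 46.9, 44.0 and 42.6 in DAT. All libraries of a group lay below those of the group before it. Tmem119 was at 68.1% of CTR in CX3 (log2 fold change -0.55, SE 0.05, adjusted p = 2.17e-06, edgeR) and at 56.0% in DAT (-0.84, SE 0.05, adjusted p = 8.10e-09), with CX3 above DAT (0.28, SE 0.05, adjusted p = 0.000368). Gpr34 (ENSMUSG00000040229.11, chromosome X from 13632089 to 13640858, plus strand), a lysophosphatidylserine receptor gene, had 27.3, 25.9 and 25.0 CPM in CTR, 17.7, 15.7 and 16.7 in CX3, and 15.1, 14.9 and 15.1 in DAT. CTR was separate from both other groups, whose values were close together. Gpr34 fell in CX3 (log2 fold change -0.64, SE 0.06, adjusted p = 2.77e-06) and in DAT (-0.79, SE 0.06, adjusted p = 1.03e-07) against CTR. Its difference between CX3 and DAT (log2 0.15, SE 0.07, adjusted p = 0.0639) did not pass the test and passed it in 7 alternative settings (0.16 to 0.34). P2ry13, Tmem119 and Gpr34 were the 3 of the 9 genes whose change in DAT against CTR exceeded 1.5-fold by glmTreat, where 10.7% of all genes passed as lower.

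Siglech and Olfml3 moved less. Siglech (ENSMUSG00000051504.18, chromosome 7 from 55768178 to 55778925, plus strand) encodes a sialic acid-binding lectin shared by microglia and plasmacytoid dendritic cells, and had 25.6, 26.5 and 26.6 CPM in CTR, 27.7, 27.1 and 27.2 in CX3, and 20.98, 22.4 and 18.0 in DAT. DAT lay below both other groups, and CX3 was not below CTR in any library. Siglech fell in DAT against CTR (log2 fold change -0.36, SE 0.07, adjusted p = 0.00047, edgeR), was not called in CX3 against CTR (0.06, SE 0.07, adjusted p = 0.532), and was higher in CX3 than in DAT (0.42, SE 0.07, adjusted p = 0.000114). Of 9 other markers of plasmacytoid dendritic cells, 7 had enough counts to be tested, and 3 of these were lower and 2 higher in DAT than in CTR. Among all genes tested, 27.9% were lower and 32.0% higher in that comparison. Olfml3 (ENSMUSG00000027848.12, chromosome 3 from 103722222 to 103738001, minus strand), which encodes a secreted olfactomedin-like protein, had 54.9, 53.7 and 53.6 CPM in CTR, 47.9, 45.7 and 46.4 in CX3, and 46.2, 49.1 and 46.2 in DAT. CX3 and DAT overlapped, and both lay below CTR. Olfml3 was at 86.4% of CTR in CX3 (log2 fold change -0.21, SE 0.05, adjusted p = 0.00336) and at 87.1% in DAT (-0.20, SE 0.05, adjusted p = 0.00218), and did not pass between CX3 and DAT (-0.01, adjusted p = 0.852). With libraries scaled by size alone, Olfml3 passed there as higher in CX3 (0.18). Its call in CX3 was lost with every gene of at least 1 count in the fit (-0.17) and in reverse-strand counts (-0.18).

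Sall1 (ENSMUSG00000031665.7, chromosome 8 from 89027235 to 89044162, minus strand), a zinc finger transcription factor that maintains microglial identity, was the 1 gene of the 9 that passed in no comparison. It had 39.9, 37.6 and 40.3 CPM in CTR, 38.2, 42.8 and 42.3 in CX3, and 46.0, 37.2 and 46.6 in DAT. All 3 groups overlapped, and DAT replicate B was well below the other DAT libraries. The log2 fold change was 0.07 (SE 0.08, adjusted p = 0.553, edgeR) in CX3 against CTR, 0.15 (SE 0.08, adjusted p = 0.117) in DAT against CTR and -0.08 (SE 0.08, adjusted p = 0.383) in CX3 against DAT. Without DAT replicate B, Sall1 passed as higher in DAT than in CTR (0.24) and as lower in CX3 than in DAT (-0.16).

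**Figure D2:**
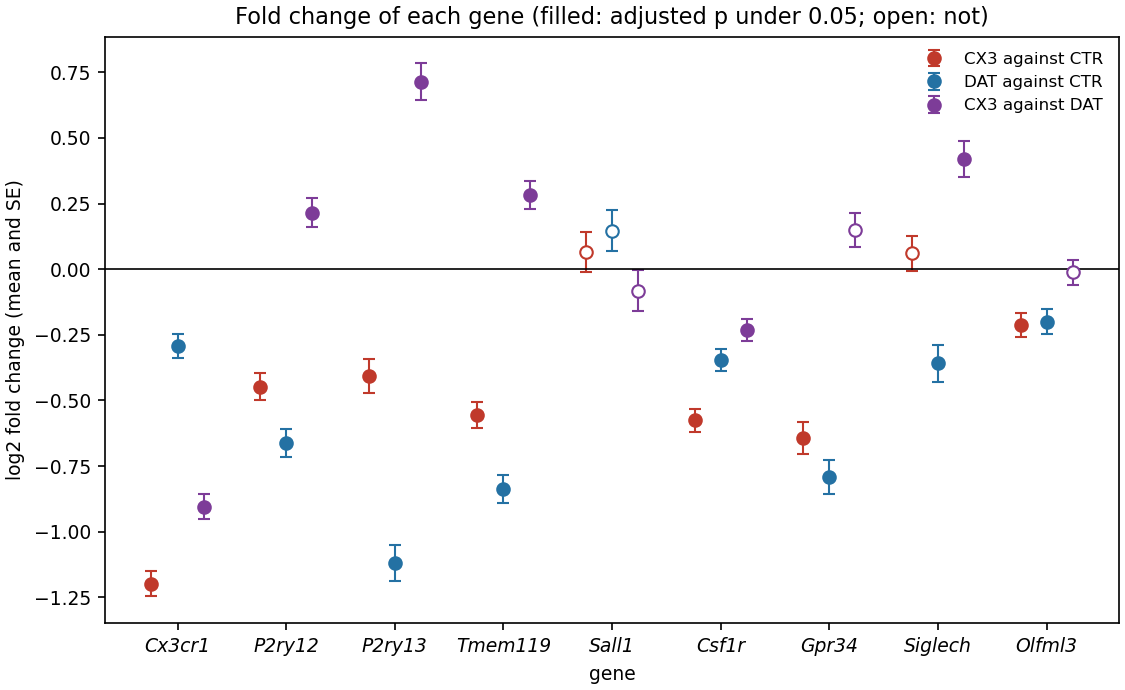
Log2 fold change (y axis) with its SE for each of the 9 genes (x axis) in CX3 against CTR, DAT against CTR and CX3 against DAT; filled points passed an adjusted p of 0.05 and open points did not. Cx3cr1 had the largest fall in CX3 (-1.20) and P2ry13 the largest in DAT (-1.12), while the 3 points of Sall1 are open.

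Per kilobase of exon, the levels can be ordered between genes. In CTR, Csf1r (34.7 ± 0.145 RPKM, SD, n = 3) and Tmem119 (34.4 ± 0.557) led and did not differ beyond their spread, followed by P2ry12 (25.5 ± 0.349) and Cx3cr1 (22.7 ± 0.200). P2ry13 (13.4 ± 0.680) and Gpr34 (12.5 ± 0.561) came next, whose spreads overlapped, and then Olfml3 (8.78 ± 0.120), Siglech (7.76 ± 0.160) and Sall1 (7.46 ± 0.282), the last pair not separate beyond the spread. In CX3 Tmem119 (23.4 ± 1.11) and Csf1r (23.3 ± 0.803) again led, whereas Cx3cr1 (9.90 ± 0.199) had moved to the fifth place beside P2ry13 (10.1 ± 0.528), which it did not differ from beyond the spread. P2ry12 (18.7 ± 0.149) lay between these pairs in CX3. Gpr34, Sall1, Olfml3 and Siglech lay between 7.58 RPKM (Olfml3) and 8.09 (Siglech) there. In DAT Csf1r (27.3 ± 0.764) stood alone at the top, Tmem119 (19.2 ± 0.956) and Cx3cr1 (18.5 ± 0.957) followed within their spread, and P2ry13 (6.13 ± 0.504) had moved down to lie beside Siglech (6.05 ± 0.669). These values are levels per total exon length of each gene model, and Olfml3 has the longest model of the 9 (6161 bases). Csf1r shares 15.1% of its exon bases with another gene, and the counts leave out reads on shared bases. Its level per kilobase is therefore understated, and its place beside Tmem119 in CTR and CX3 is uncertain.

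Summed over the 9 genes, the level was 623 to 629 CPM in CTR, 434 to 445 in CX3 and 458 to 477 in DAT, so CTR was separate from both. The coefficient of variation between libraries had a median over the 9 genes of 1.62% in CTR (0.418% to 5.08%), 3.45% in CX3 (0.794% to 6.10%) and 5.17% in DAT (0.692% to 12.2%).

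Other homeostatic microglia genes gave a mixed picture. Of 24, 14 were lower and 2 higher in CX3 than in CTR, with a median log2 fold change of -0.19. In DAT, 10 were lower and 7 higher, with a median of -0.08. The 7 higher lie near the share of all genes tested that were higher in DAT (32.0%). Mertk, a receptor gene for the uptake of apoptotic cells, had 54.0 ± 1.99 CPM in CTR, 35.4 ± 1.85 in CX3 and 27.4 ± 3.33 in DAT (SD, n = 3 libraries), and fell in both (log2 fold change -0.61 and -0.98, adjusted p = 1.94e-05 and 5.48e-08, edgeR). Crybb1 (-0.58 and -1.05) and Selplg, the P-selectin ligand gene (-0.52 and -0.72), fell in the same 2 comparisons, with adjusted p of 0.000102 and 1.68e-07 for Crybb1 and 1.59e-06 and 1.30e-08 for Selplg. For these 3, DAT was below CX3, the order seen for P2ry12, P2ry13 and Tmem119. They were named for the size of their change in CX3 against CTR and do not stand for the list. Of the 24, 11 were higher and 8 lower in CX3 than in DAT, where 27.6% of all genes were higher and 31.3% lower.

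Regulators of the programme and ligands of its receptors, 25 genes in all, had 12 lower and 2 higher in CX3 than in CTR (median -0.10). In DAT, 13 were lower and 8 higher (median -0.14), the latter near the share of all genes tested that were higher there (32.0%). Irf8, a transcription factor of the myeloid lineage, had 36.3 ± 2.37 CPM in CTR, 60.5 ± 1.87 in CX3 and 15.8 ± 1.41 in DAT (SD, n = 3 libraries). It rose in CX3 (log2 fold change 0.74, SE 0.06, adjusted p = 8.45e-07, edgeR) and fell in DAT (-1.20, SE 0.07, adjusted p = 3.79e-09), opposite directions that no gene of the 9 showed. Spi1, which encodes PU.1, had 16.5 ± 0.430, 17.1 ± 0.636 and 8.96 ± 0.218 CPM, with no call in CX3 (log2 0.05, adjusted p = 0.570) and a fall in DAT (-0.88, adjusted p = 4.81e-08). Among genes of transforming growth factor beta signalling, the receptor gene Tgfbr1 fell in CX3 (-0.21, adjusted p = 0.0136) and further in DAT (-0.78, adjusted p = 7.06e-08). Nrros, whose product anchors the latent factor on microglia, fell in both (-0.45 and -1.03, adjusted p = 0.00286 and 1.17e-06). The ligand gene Tgfb1 rose in CX3 (0.35, adjusted p = 0.00187) and did not pass in DAT (0.14, adjusted p = 0.113). The transcription factor gene Runx1 fell in both comparisons (-0.41 and -1.24, adjusted p = 0.0113 and 1.07e-06). Maf fell in CX3 (-0.41, adjusted p = 0.000197) and rose in DAT (0.20, adjusted p = 0.0111). That rise was lost with libraries scaled by size alone (0.06), with genes of at least 10 counts in every library (0.13), in forward-strand counts (0.05) and without CTR replicate B or C (0.18 in each). The CX3 calls of Tgfbr1 and Runx1 were lost when some single libraries were left out (-0.17 to -0.20 without CTR B, CX3 A or CX3 B for Tgfbr1, and -0.33 and -0.36 without CTR A or CX3 B for Runx1). Counts of 1 strand also lost calls in CX3, those of Tgfbr1 (-0.20, reverse), Tgfb1 (0.28, forward) and Runx1 (-0.37 reverse and -0.40 forward).

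General myeloid genes, a list that includes the pan-leukocyte gene Ptprc, had a lower median than the 9 genes in DAT. Their median in CX3 was near that of the 9 genes, which is a description without a test. Of 18 general myeloid genes, 13 were lower and 0 higher in CX3 than in CTR (median log2 fold change -0.38), and 18 were lower in DAT (median -1.46). C1qa, a complement gene of microglia and macrophages, had 504 ± 14.4 CPM in CTR, 344 ± 13.1 in CX3 and 175 ± 24.3 in DAT (SD, n = 3 libraries; log2 fold change -0.55 and -1.53, adjusted p = 6.00e-05 and 6.05e-10, edgeR). Cd68, a lysosomal gene, fell in both (log2 fold change -0.80 and -1.72, adjusted p = 3.05e-07 and 8.30e-11), as did the integrin gene Itgam (-0.59 and -0.86, adjusted p = 0.00116 and 2.64e-05). Nckap1l, an actin regulator of blood cells, did so too (-0.49 and -1.34, adjusted p = 8.75e-05 and 1.74e-09). Of 22 genes that rise in disease-associated microglia, 9 were lower, 3 higher and 10 not called in CX3 (median -0.02). In DAT, 19 were lower and 2 higher (median -0.76). The 4 genes named next had the largest changes in CX3 among those of at least 1 CPM. All 4 fell, so they do not stand for the list there. Gpnmb had 62.5 ± 3.01, 27.7 ± 0.311 and 8.14 ± 0.666 CPM in CTR, CX3 and DAT (log2 fold change -1.17 and -2.96, adjusted p = 2.28e-09 and 3.38e-13), and Trem2, a lipid-sensing receptor gene, 75.9 ± 1.16, 48.4 ± 1.68 and 30.0 ± 3.56 (-0.65 and -1.35, adjusted p = 4.56e-06 and 9.28e-10). The lipoprotein gene Apoe, which astrocytes also express, fell in CX3 (-0.96) and in DAT (-0.67, adjusted p = 1.99e-08 and 1.42e-07), and so did the protease gene Ctsd (-0.69 and -1.04, adjusted p = 1.93e-05 and 7.23e-08). These lists are no test of the 9 genes, and the same CTR libraries enter both comparisons.

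**Figure D3:**
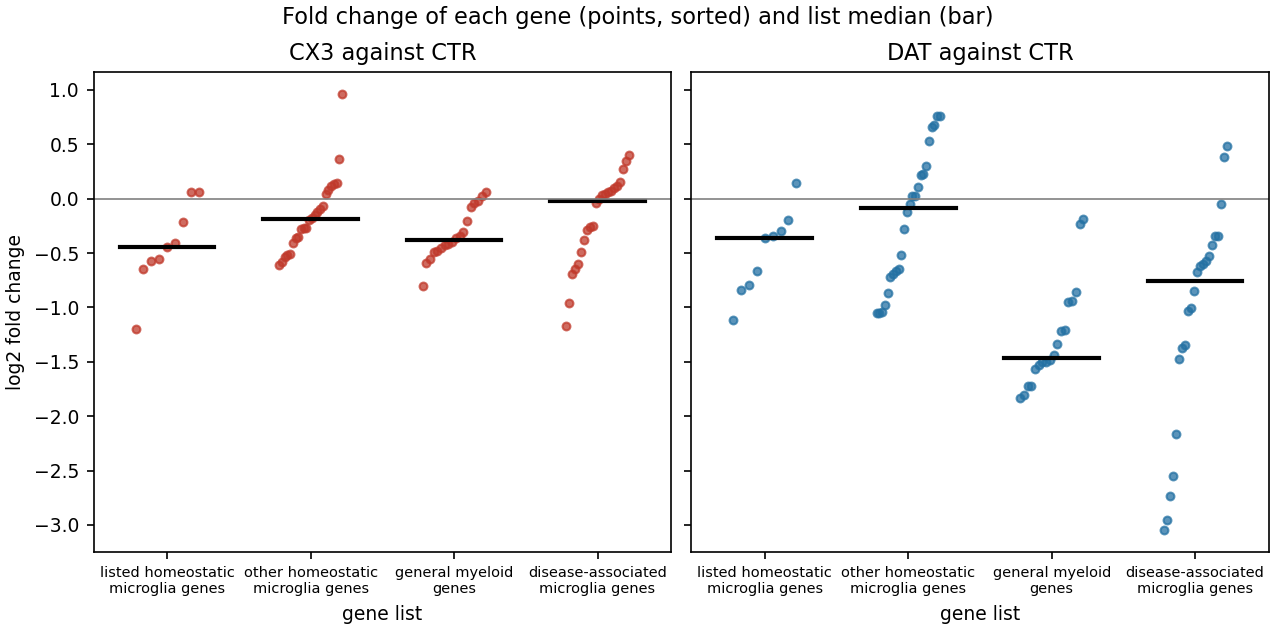
Log2 fold change (y axis) in CX3 against CTR (left) and DAT against CTR (right) of each gene of 4 lists (x axis); points are genes, sorted, and the bar is the list's median. The medians of the 9 listed genes and of the general myeloid genes were -0.45 and -0.38 in CX3, and -0.36 and -1.46 in DAT.

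Within libraries, homeostatic genes were set against general myeloid genes by their ratio of counts. The ratio of P2ry12 to Ptprc, the pan-leukocyte gene CD45, was 1.02, 1.01 and 0.993 in CTR, 0.9005, 0.815 and 0.843 in CX3, and 2.17, 2.84 and 1.96 in DAT. DAT was above CTR in all 3 libraries, and CX3 below it. Lymphocytes also express Ptprc, and their markers were highest in CTR and lowest in DAT. Their part in the ratio of P2ry12 to Ptprc was not tested. The ratio of Csf1r to Ctss, a lysosomal protease gene, was 0.260 ± 0.00567 in CTR, 0.231 ± 0.0139 in CX3 and 0.585 ± 0.0893 in DAT (SD, n = 3 libraries), again with no overlap. The ratio of Tmem119 to C1qa was 0.158 ± 0.00414 in CTR and 0.158 ± 0.00364 in CX3, which overlapped (exact permutation p = 0.8), and 0.257 ± 0.0361 in DAT, above both. Each comparison of these ratios with no overlap gave the smallest exact p, 0.1 (adjusted 0.12).

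**Figure D4:**
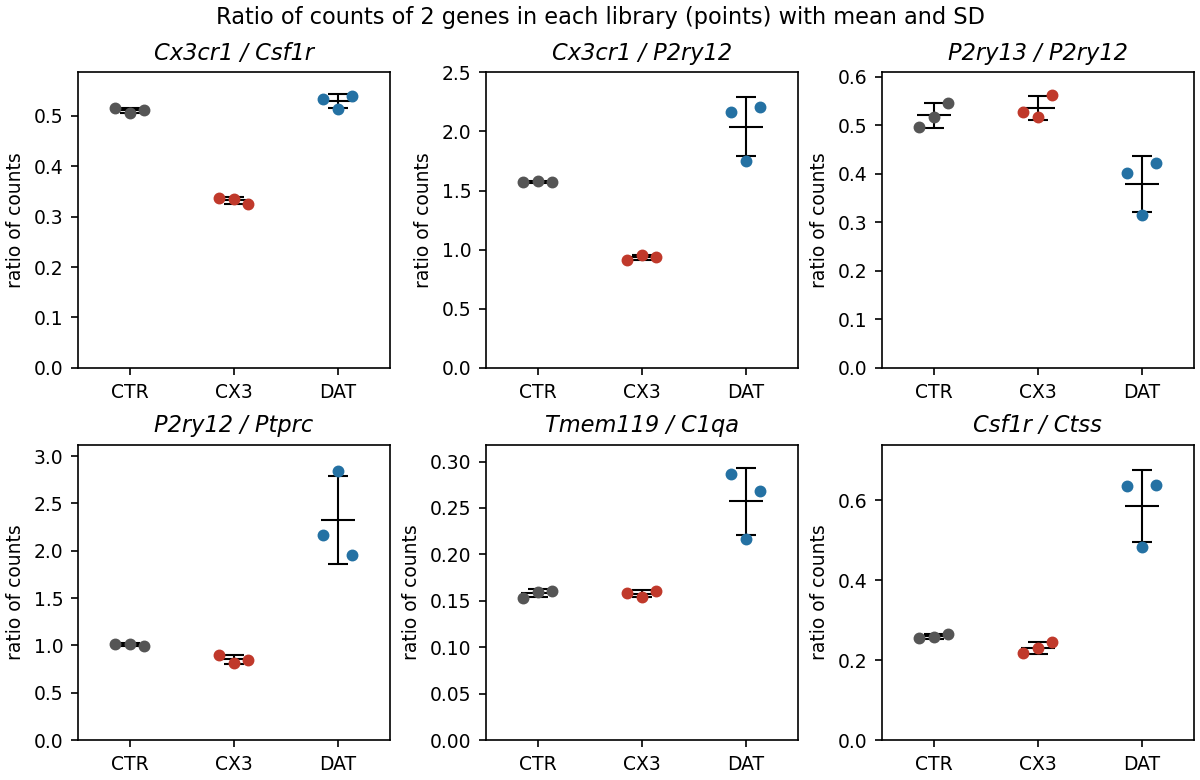
Ratio of counts of 2 genes within a library (y axis, from 0) in CTR, CX3 and DAT (x axis); points are libraries, and the bar and whiskers are their mean and SD. Cx3cr1 to Csf1r is lowest in CX3 (0.332 ± 0.00668) and about level in CTR and DAT, while P2ry12 to Ptprc, Tmem119 to C1qa and Csf1r to Ctss are highest in DAT.

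Markers of other blood-derived and brain cells moved with these groups, and their part in the results was not tested. Of the 12 lymphocyte markers, 9 were lower in CX3 and 12 in DAT than in CTR, and Jchain had 298 ± 9.22, 71.9 ± 2.56 and 8.79 ± 1.49 CPM (SD, n = 3 libraries). The B cell gene Cd79a had 5.63 ± 0.322, 1.30 ± 0.178 and 1.39 ± 0.211 CPM, and the T cell genes Cd4 and Cd2 had 5.30 ± 0.755 and 6.25 ± 0.386 in CTR, 3.31 ± 0.234 and 4.24 ± 0.875 in CX3, and 1.66 ± 0.609 and 1.86 ± 0.217 in DAT. Lymphocyte markers were thus highest in the libraries labelled CTR for each of these 4 genes. Monocyte and neutrophil markers (11 of 12 tested) summed to 337 to 344 CPM in CTR, 325 to 331 in CX3 and 100.3 to 111 in DAT, with 6 lower and 2 higher in CX3 and 11 lower in DAT. Within that list Ly6c2 fell in CX3 (39.2 ± 0.935 to 8.70 ± 0.564 CPM), as did Ms4a4c (6.27 ± 0.275 to 3.44 ± 0.459 CPM). In contrast, Ccr2, the receptor gene that draws monocytes into tissue, rose in CX3 (3.79 ± 0.447 to 9.72 ± 1.08 CPM, log2 fold change 1.35, adjusted p = 9.13e-07, edgeR), and so did Chil3 (0.713 ± 0.0881 to 4.61 ± 0.499 CPM, adjusted p = 5.81e-08). Perivascular macrophage markers, 10 genes, summed to 93.7 to 97.1 CPM in CTR, 89.6 to 94.2 in CX3 and 118 to 122 in DAT, and 7 were higher and 1 lower in DAT than in CTR. In CX3, 2 of them were higher (F13a1 among them, log2 fold change 0.52, adjusted p = 0.000873) and 3 lower (Lyve1, -0.78, adjusted p = 0.0081, and Ms4a7, -0.41, adjusted p = 0.00567, among them), and Cd209f did not pass there (0.33, adjusted p = 0.256). Neuron markers summed to 3677 to 3714 CPM in CTR, 3757 to 3899 in CX3 and 5053 to 5219 in DAT, and oligodendrocyte markers to 20179 to 20259, 21399 to 21788 and 14593 to 15524. Astrocyte markers summed to 4575 to 4624 CPM in CTR, 2665 to 2766 in CX3 and 2743 to 2761 in DAT, and endothelial markers to 161 to 164, 220 to 227 and 300.4 to 312 CPM. Of all these lists, 1 marker was at 0 in a whole group (Cd300c of plasmacytoid dendritic cells, in DAT, named after its values were seen).

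Genes outside the list with the profile most like it were chosen by the root mean square distance between log2 levels, each centred on its own mean over the 9 libraries, among 12607 genes. Nearest to the median of the 9 genes were Ly6e (distance 0.044), Pla2g7 (0.046), Tsc22d3 (0.048), Ifngr1 (0.057) and Cd63 (0.059), with Ly6e at 297, 219 and 192 CPM in CTR, CX3 and DAT. The genes nearest to Cx3cr1 lay farther away: Agt, the angiotensinogen gene, came first (0.099, with 352, 169 and 315 CPM), then Vcl (0.14) and Igfbp5 (0.16). Siglech had Plpp5 (0.041), Dpy30 (0.042) and Nudt13 (0.046) nearest. These distances describe the 9 libraries, which share group and depth, and carry no test.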

How the data were processed

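RNA of dissected nigral tissue was sequenced by the authors with a stranded mRNA kit and reads of 76 bases. Per the submitters' notes, reads were processed with Trimmomatic, STAR and DESeq2 on mm10, with versions not given in the sources used here. The authors deposited raw counts per gene, not normalised, in a separate table for each library. The methods name featureCounts, while the layout is that of STAR's gene counts, which leave out reads on bases shared by genes. Reverse-strand counts made up 49.8% to 49.9% of strand-specific counts, so unstranded counts were used. Rows that name no gene (30.5% to 35.9% of reads) were left out. Among these, reads that mapped to no gene made up 7.47% to 7.61% of reads in CTR, 6.39% to 7.73% in CX3 and 4.15% to 4.31% in DAT. The part of this group difference in the results was not tested. All 55450 identifiers matched GENCODE M21 on GRCm38.

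Counts were scaled by TMM, filtered with filterByExpr and fitted over all 9 libraries with edgeR 4.0.16 (quasi-likelihood test, group as the single term) in R 4.3.3. P-values were Benjamini-Hochberg adjusted over 20892 genes and called under 0.05. Alternatives used DESeq2 1.42.0, other scalings, filters, strands and each library left out. RPKM divides CPM by total exon length. Ratios were tested by exact permutation, with Python 3.11.15 and scipy 1.17.1. Groups followed the labels. All 9 genes are named. From other microglial, myeloid, lymphocyte, perivascular and astrocyte lists, up to 4 genes with the largest change in CX3 against CTR and at least 1 CPM are named, beside preset ligands and regulators. The remaining marker lists are given as sums or counts. A further gene that this rule names is not reported here. The genes, lists and motifs were chosen with earlier results of these data known. The replicate letters were not treated as pairs across groups in the main fit.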

Additional observations from a re-analysis of the deposited data

How the results depend on the processing

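Depth did not limit the 9 genes, which held at least 280 counts per library. The calls rest on 3 libraries per group of unknown animal number. Requiring a change above 1.5-fold (edgeR glmTreat) left 529 genes in CX3 against CTR, 3773 in DAT against CTR and 3780 in CX3 against DAT, of 6367, 12520 and 12311 called, and 1, 3 and 1 of the 9 genes, of 7, 8 and 6. Leaving out each library in turn gave 4638 to 8588, 11259 to 13389 and 11265 to 13254 genes called in these comparisons, and 7 in each case, 8 to 9 and 6 to 7 of the 9 genes, the additional one being Sall1 or Gpr34. Scaling by library size alone moved the median of all genes by -0.15 in DAT against CTR and to 0.20 in CX3 against DAT, and turned the split of higher and lower calls from 6686 and 5834 to 4890 and 8045 in DAT against CTR, from 5767 and 6544 to 8916 and 4444 in CX3 against DAT, and from 2923 and 3444 to 3958 and 2766 in CX3 against CTR. With that scaling Olfml3 in CX3 against DAT changed from -0.01 to 0.18 and passed the test. The cause was not tested. Over the 9 genes, the 3 comparisons and the alternatives, 484 values stayed on their side of the threshold, 15 of them with the opposite sign (Olfml3 and Sall1, not called in either fit). A further 19 lost a call (16 of them in the 1.5-fold test), 9 gained one with the same sign and 1 gained one with the opposite sign. Deviations of libraries with the same letter had correlations of -0.42 to 0.213, 3 of 9 over 0.1, while other letters gave -0.396 to 0.502. Those 3 were the pairs of letter C (0.145, 0.178 and 0.213), and pairs of letters A and B gave -0.42 to 0.0837. The replicate block gave 5805, 12144 and 11955 genes called and left 7, 8 and 6 of the 9 genes called.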
